A study of Homo sapiens with 12 samples.

Results

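Control cultures of HCT116, a human colorectal carcinoma cell line, were compared between 24 h and 48 h. The members are the 6 control samples of the 12 in the series, chosen by their label for treatment and time, 3 at 24 h and 3 at 48 h, and the comparison covers every named gene that was tested. All 12 samples are HCT116 cells of wild-type (WT) genotype grown in DMEM with fetal bovine serum and antibiotics. The control cells stayed in full medium for 24 h or 48 h, and the other 6 samples were washed and given DMEM with serum, antibiotics and 0 mM cystine for the same times. The labels describe a wash and new medium for the deprived cells and mention neither for the controls. Cell density, oxygen tension, medium change in the controls and the day of harvest are not given by the sources used, and time in culture and day of harvest cannot be told apart. Whether the 3 samples of each group came from separate cultures is not stated. Each p-value therefore only sets a difference against the spread within groups, estimated from all 12 samples, and that spread may be technical. The question is what changed in untreated cells between the time points, which is the baseline against which the deprived cells are read.

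Cells read oxygen through the hypoxia-inducible factors: prolyl hydroxylases of the EGLN family mark the HIF alpha subunits, VHL targets the marked protein for degradation, and when hydroxylation slows HIF binds DNA at the core letters ACGTG and raises genes of glycolysis, angiogenesis and pH control. The position in the cell cycle leaves its own record, because E2F factors drive the genes of DNA replication before S phase while a later programme drives the genes of mitosis. These sentences are background and were not measured here.

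Libraries of the control cells held 19146108 to 20520464 estimated reads at 24 h and 22024391 to 23395234 at 48 h, before rows without a gene name were left out. Transcripts of the mitochondrial genome took 6.69 to 7.24% of the reads at 24 h and 8.52 to 8.55% at 48 h, and the 10 most abundant genes took 8.16 to 8.42% and 9.65 to 9.8%. On the first principal component of the 6 control libraries, which held 36.7% of the variance, the 24 h libraries lay between −25.6 and −22.7 and the 48 h libraries between 19.7 and 30. The second component held 17.1% and set replicate 1 of both time points (19.8 and 27) apart from the other libraries (−14.8 to −8.03). Counts for the leading lists are given with and without them. Levels below are CPM, a gene's reads brought to 1 common library size with edgeR's TMM factors, and fold changes are those fitted by edgeR's quasi-likelihood test, always 48 h relative to 24 h. A gene rose or fell where its Benjamini-Hochberg adjusted p, taken over all genes tested, was under 0.05.

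Of 16994 genes tested, 2151 were higher at 48 h (12.7%) and 1760 lower (10.4%), which together are 23.0% of the genes tested. Counts for every gene list below are to be read against these shares. Most of these differences were small. The median log2 fold change of all genes was 0.01, with quartiles at −0.16 and 0.20, and 76.2% of the called genes differed by less than 0.5 on the log2 scale. The groups did not overlap for 3775 of the 3911 called genes, so a lack of overlap given below for a called gene is the usual case. At least 2-fold higher were 133 genes (0.783%) and at least 2-fold lower 68 (0.400%). The split between directions depended on the scaling. With library totals in place of TMM factors the median of all genes moved to −0.04 and the counts to 1697 higher and 2580 lower, so that 39.7% of the calls were higher in place of 55%.

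**Figure D1:**
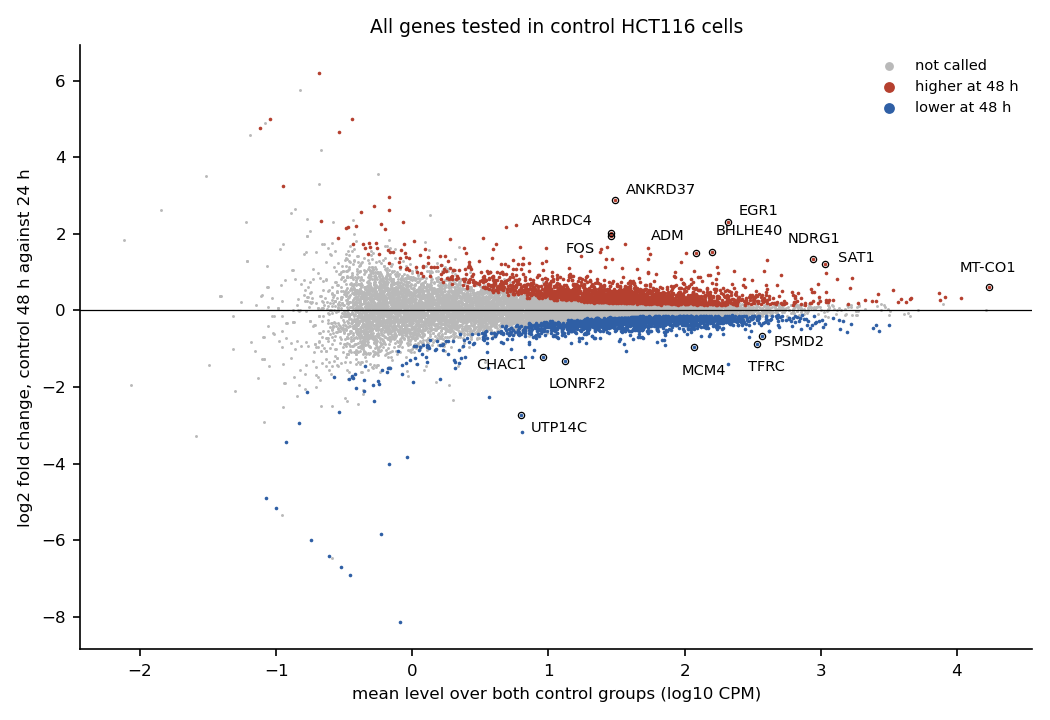
Each point is 1 gene, with its mean level over the control groups (log10 CPM) on the x axis and its fitted log2 fold change, control 48 h against 24 h, on the y axis, coloured by whether it rose or fell. The cloud is centred near 0 (median 0.01), and 133 genes lie at least 2-fold above the 24 h level against 68 at least 2-fold below.

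The 15 largest rises, taken from genes that averaged 5 CPM or more, included targets of hypoxia, growth factor and glucose signalling beside genes of other kinds. ANKRD37, a short ankyrin repeat protein gene known as a HIF target, stood at 4.78, 8.88 and 8.72 CPM at 24 h and at 47.1, 60.6 and 55.2 CPM at 48 h, a 7.31-fold rise (log2 2.87 ± 0.16 SE, adjusted p = 9.17e-10). EGR1, a zinc finger factor that is transcribed within minutes of a growth factor signal, rose 4.98-fold and FOS, its partner in the immediate early response, 3.83-fold. ARRDC4 and ARRDC3, arrestin-like proteins that restrain nutrient uptake, rose 4.02-fold and 2.81-fold. PDGFA, a ligand of the platelet-derived growth factor receptors, read 14.9, 18.2 and 17.5 CPM and then 46.5, 65.3 and 56.4 CPM. SLC2A3, a high-affinity glucose transporter, read 11.4, 14.2 and 11.4 CPM and then 33, 38.6 and 34.2 CPM. In each of these the lowest 48 h sample lay above the highest 24 h sample, which the rule for naming the 15 required. TMEM200B rose 4.72-fold, more than ARRDC4 and FOS, from 1.37, 2.16 and 2.51 CPM to 7.54, 8.96 and 11.9 CPM. TMEM158 rose 3.16-fold, more than ARRDC3. BHLHE40 (a transcriptional repressor of the clock, 2.89-fold), ADM, ANGPTL4, HILPDA and HFM1 were also among the 15. HFM1 varied widely at 48 h, with 32.5, 54.1 and 23.4 CPM at 48 h against 8.66, 12.5 and 15.5 CPM at 24 h.

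The 15 largest falls were of other kinds. UTP14C read 7.9, 12.4 and 12.5 CPM at 24 h and 1.53, 1.87 and 1.51 CPM at 48 h (log2 −2.73 ± 0.32 SE), but it is a near copy of UTP14A and the estimated counts can split reads between such copies, so its value is uncertain. TFRC, the transferrin receptor that imports iron, fell from 429, 446 and 437 CPM to 250, 240 and 230 CPM. MCM4 and MCM5, subunits of the replicative helicase, gave log2 fold changes of −0.97 and −0.91 and TIGAR, a fructose bisphosphatase, one of −0.84. CHAC1, which cleaves glutathione, fell by 1.21. Other falls among the 15 were LONRF2 (−1.32), RN7SK (−1.21), MIR31HG (−0.87), ZNF480, LINC02457, OXCT1, LINC00342 and ALYREF. In all 15 the 24 h and 48 h samples did not overlap, which the rule for naming them required.

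HIF target genes rose together. Of 32 listed, 31 were tested, 28 rose and none fell, with a median log2 fold change of 0.68 beside 0.01 over all genes, and 9 rose at least 2-fold. These shares compare with 12.7% and 0.783% of all genes. The summed level of the list was 1742, 2182 and 2254 CPM at 24 h and 3681, 4120 and 3823 CPM at 48 h, with no overlap. Replicate 1 at 24 h was the lowest of its group for 26 of the 31 genes and replicate 1 at 48 h for 17. Without replicate 1 of both time points 26 genes rose, and over all the settings tried the count ran from 25 to 29.

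Among the secreted products, ADM (adrenomedullin, a vasodilator peptide, chr11:10304680-10307397) read 54.9, 66 and 70.5 CPM at 24 h and 177, 186 and 178 CPM at 48 h. Its mean went from 63.8 ± 8.02 to 180 ± 5.21 CPM (SD, n = 3), 2.83-fold (edgeR adjusted p = 3.46e-10). ANGPTL4, an inhibitor of lipoprotein lipase, read 20.8, 31.8 and 26.2 CPM and then 72.4, 95.5 and 77.8 CPM, a 3.13-fold rise. VEGFA, the main angiogenic growth factor, rose less, from 68.2, 74.9 and 79.5 CPM to 119, 131 and 114 CPM, 1.63-fold. All 3 separated the time points without overlap. Of the genes that act on pH and metabolism, CA9, a cell surface carbonic anhydrase used as a marker of hypoxia, was low throughout, with 1.23, 1.69 and 2.82 CPM at 24 h and 4.6, 6.72 and 7.66 CPM at 48 h (3.31-fold, adjusted p = 0.000146). PDK1, which keeps pyruvate out of the mitochondria, read 17.5, 24.6 and 24.1 CPM and then 49.8, 47.9 and 45 CPM. SLC2A1, the main glucose transporter, rose 1.74-fold and NDRG1, a stress-induced gene, from 408, 537 and 543 CPM to 1144, 1360 and 1232 CPM. P4HA1, a collagen prolyl hydroxylase, rose 1.96-fold. The 3 tested targets without a call were ZNF395 (log2 0.25), CA12 (0.26) and LOX (−0.54 at about 1 CPM or less), and STC1 was too low to test. A separate list of monocarboxylate and proton transporters, which also holds CA12, did not rise. Of its 10 genes tested none rose and 4 fell (40%, beside 10.4% of all genes), with a median of −0.08. Without replicate 1 of both time points 2 fell.

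The regulators of the pathway moved little and in different directions. HIF1A, the alpha subunit that is mainly controlled at the protein level, fell from 165, 158 and 158 CPM to 137, 130 and 133 CPM (log2 −0.27 ± 0.05 SE, edgeR adjusted p = 0.00137). EPAS1, which encodes HIF-2 alpha, rose from 79.5, 84.8 and 80.4 CPM to 102, 109 and 94.3 CPM. Of 9 regulators tested these and SIRT1 (−0.43) and VHL (−0.22) were called, and the call of VHL was lost without replicate 2 at 24 h (adjusted p = 0.063), without replicate 2 at 48 h (0.0543) and without replicate 1 of both time points (0.0816). EGLN1, the oxygen-sensing hydroxylase and itself a HIF target, rose by 0.50, with 33.4, 40.6 and 48.8 CPM at 24 h overlapping 46.2, 69.8 and 57.3 CPM at 48 h.

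Glycolysis enzymes rose with them. Of 16 tested, 13 rose (81.2%, beside 12.7% of all genes) and none fell, with a median log2 fold change of 0.46. HK2, which commits glucose to the pathway, rose 1.76-fold, from 63.8, 83.7 and 93.4 CPM to 138, 149 and 137 CPM. ALDOC, an aldolase isozyme, went from 119, 149 and 185 CPM to 288, 322 and 309 CPM (log2 1.03 ± 0.12 SE), and ALDOA from 1014, 1190 and 1426 CPM to 2040, 2249 and 2210 CPM. PGK1, phosphoglycerate kinase, read 632, 765 and 785 CPM and then 1104, 1210 and 1193 CPM. LDHA, which turns pyruvate into lactate, read 1089, 1402 and 1465 CPM and then 1928, 1991 and 1979 CPM (1.49-fold). None of these overlapped between times. GAPDH rose by 0.23 with overlapping samples (4383 CPM in the highest 24 h sample, 4359 CPM in the lowest 48 h sample). PKM (0.14), PFKM (−0.02) and PGAM1 (0.03) did not pass the test. Replicate 1 at 24 h was the lowest of its group for 16 of 16 enzymes and replicate 1 at 48 h for 15. Without replicate 1 of both time points 11 enzymes rose.

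**Figure D2:**
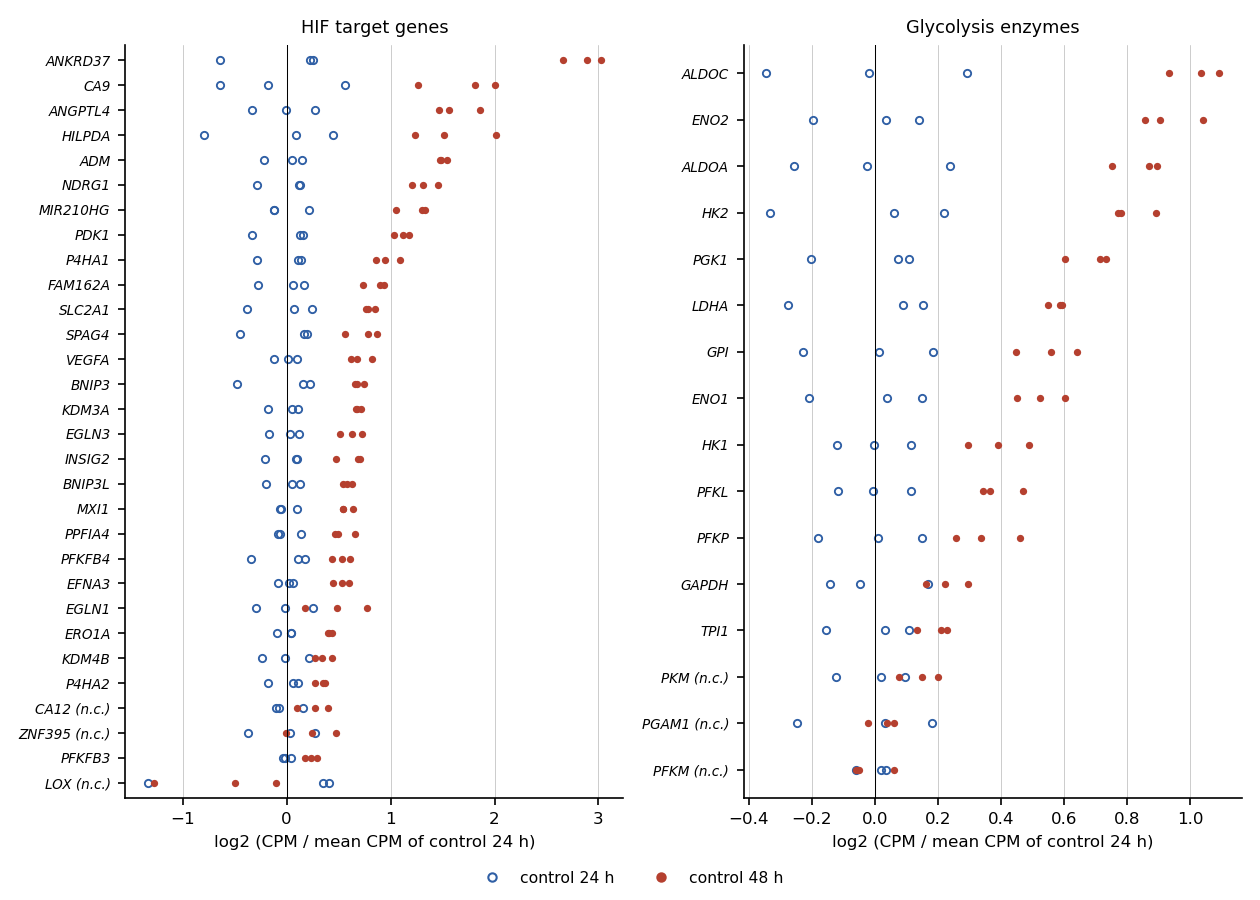
Tested HIF target genes (left) and glycolysis enzymes (right) are rows, ordered by fold change, and the x axis is log2 of the CPM in a sample over the mean CPM of control 24 h, with open points for the 3 samples at 24 h and filled points for those at 48 h. The filled points lie to the right of the open points for most rows, with ANKRD37 at the top (log2 2.87) and LOX at the bottom (−0.54) of the left panel.

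Promoters of an induced HIF target and of a glycolysis enzyme are shown because the genes around them rose as groups. The sequences are RefSeq's on GRCh38.p14, from 250 bases before to 50 after the annotated start, 5′ to 3′ on the gene's strand, in lower case with every match to ACGTG on either strand in capitals. ANKRD37 lies at chr4:185396591-185396890 on the plus strand, with matches that begin 162, 161 and 143 bases before the start, the first pair overlapping as CACGTG. LDHA lies at chr11:18394313-18394612 on the plus strand, with 5 matches between 185 and 73 bases before the start.
ANKRD37: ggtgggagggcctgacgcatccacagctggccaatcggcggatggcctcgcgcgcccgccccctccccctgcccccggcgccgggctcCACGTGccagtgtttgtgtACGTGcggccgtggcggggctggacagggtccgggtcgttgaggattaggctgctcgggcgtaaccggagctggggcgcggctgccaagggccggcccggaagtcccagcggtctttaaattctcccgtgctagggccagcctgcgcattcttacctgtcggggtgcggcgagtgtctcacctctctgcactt
LDHA: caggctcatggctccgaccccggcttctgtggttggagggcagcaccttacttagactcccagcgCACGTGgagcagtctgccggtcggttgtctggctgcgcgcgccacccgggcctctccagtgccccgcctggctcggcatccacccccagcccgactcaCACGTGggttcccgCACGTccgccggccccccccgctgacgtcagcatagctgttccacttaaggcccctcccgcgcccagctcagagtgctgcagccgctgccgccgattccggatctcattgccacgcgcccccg
The letters ACGTG occurred on either strand in 13 of the 24 HIF targets with a promoter entry (54.2%) and in 8 of the 16 glycolysis enzymes (50%), against 21.6% of all 27305 promoters in the table and 26.3% of the 11380 promoters of genes tested. A match is a description of the letters and not evidence of binding.

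The arrestin-like pair belongs to a list of glucose-sensing genes. MondoA, encoded by MLXIP, and its relative ChREBP bind CACGTG-type elements when glucose phosphates accumulate, and ARRDC4 and TXNIP are the textbook targets. ARRDC4 (chr15:97960698-97973838) read 13.4, 10.1 and 11.1 CPM at 24 h and 48.4, 44.2 and 47.1 CPM at 48 h, a mean of 11.5 ± 1.72 against 46.6 ± 2.18 CPM (SD, n = 3; log2 2.01 ± 0.09 SE, edgeR adjusted p = 7.94e-11). ARRDC3 read 45.8, 60.2 and 53.8 CPM and then 151, 153 and 145 CPM. Both separated the time points by a gap several times wider than the spread within either group. KLF10 rose by 0.59 and MLXIP itself fell by 0.25. These 4 were the only called members of 8 tested, the median of the list was 0.12, and TXNIP had at most 1 read in any control library and could not be tested. The promoter of ARRDC4 (RefSeq, GRCh38.p14, chr15:97960453-97960752, plus strand) is shown because it gave the largest rise of the list, with the match to CACGTG, 210 bases before the start, in capitals.
ARRDC4: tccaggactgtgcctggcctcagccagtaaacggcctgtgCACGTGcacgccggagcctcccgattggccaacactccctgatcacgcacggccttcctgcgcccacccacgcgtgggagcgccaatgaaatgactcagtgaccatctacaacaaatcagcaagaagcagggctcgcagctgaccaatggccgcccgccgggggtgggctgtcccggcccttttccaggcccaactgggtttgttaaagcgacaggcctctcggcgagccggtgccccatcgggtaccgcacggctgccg
CACGTG occurred in 7.43% of all promoters in the table and in 10% of those of genes tested, and each CACGTG is also a match to ACGTG on both strands.

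Immediate early genes, the transcription factors that growth factor and stress signals switch on without new protein synthesis, formed the other large rise. All 22 listed were tested, 17 rose (77.3%, beside 12.7% of all genes), none fell, 9 rose at least 2-fold and the median was 0.89. EGR1 (chr5:138465490-138469315) read 72.9, 62.8 and 75.2 CPM at 24 h and 313, 397 and 341 CPM at 48 h (log2 2.32 ± 0.08 SE, edgeR adjusted p = 3.21e-12). FOS read 10.9, 11.1 and 14 CPM and then 37.1, 54 and 47.2 CPM. JUNB, a partner of FOS in AP-1, read 103, 109 and 114 CPM and then 212, 247 and 255 CPM. In each the 48 h samples were all above the 24 h samples, and the replicate 1 library was the lowest of the 48 h samples for 16 of the 22 genes. Without replicate 1 of both time points 17 rose. ZFP36, which destabilizes AU-rich messages, rose 2.8-fold, KLF4, an epithelial zinc finger factor, 2.51-fold, and IER3, an early response gene linked to survival, 1.9-fold. KLF2, IER5, ATF3, MCL1 and SRF did not pass, and ATF3 read 17.3 ± 1.05 CPM at 24 h and 17 ± 1.74 CPM at 48 h (SD, n = 3).

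The ERK feedback genes are raised by growth factor signalling. The DUSP, SPRY and SPRED genes among them damp that signalling, while others such as LIF, FOSL1 and CCND1 are outputs of it. Among 17 genes of the list tested there were 11 rises (64.7%, beside 12.7% of all genes) and no fall, with a median of 0.47. DUSP6, the phosphatase of ERK in the cytoplasm, read 256, 248 and 246 CPM at 24 h and 507, 532 and 500 CPM at 48 h (2.05-fold, edgeR adjusted p = 7.94e-11). DUSP5 (0.83) and DUSP4 (0.81), which act on ERK in the nucleus, LIF (0.61), FOSL1 (0.73) and SPRY1 (1.20, at 2.55 to 8.39 CPM) also rose. ETV1, ETV5, SPRY2, SPRED1, SPRED2 and CCND1 did not pass. Without replicate 1 of both time points 10 rose, and with library totals alone 2 of the 17 were called lower.

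The promoter of EGR1 (RefSeq, GRCh38.p14, chr5:138465229-138465528, plus strand) is shown because EGR1 had the smallest adjusted p of the immediate early genes. Capitals mark matches to the CArG box, the site of serum response factor, which begin 105 and 83 bases before the start.
EGR1: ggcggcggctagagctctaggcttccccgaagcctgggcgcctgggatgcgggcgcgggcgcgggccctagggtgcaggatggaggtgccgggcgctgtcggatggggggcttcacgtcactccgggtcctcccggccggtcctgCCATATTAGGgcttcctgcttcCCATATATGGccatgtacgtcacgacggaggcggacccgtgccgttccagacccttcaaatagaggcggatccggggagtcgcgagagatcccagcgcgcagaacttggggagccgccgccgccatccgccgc
The CArG box was searched on both strands. It occurred in 2 of the 18 immediate early genes with a promoter entry (11.1%), in 1.29% of all promoters in the table and in 1% of those of genes tested.

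Genes of DNA replication and genes of mitosis moved in opposite directions. Of 40 replication and E2F target genes, all tested, 24 fell and 1 rose, with a median of −0.28, and of 40 genes of G2 and mitosis, all tested, 28 rose and none fell, with a median of 0.24. The shares of all genes were 10.4% lower and 12.7% higher. Replicate 1 was the lowest of its group for 25 replication genes at 24 h and 30 at 48 h, and for 19 and 24 mitotic genes. Without replicate 1 of both time points 17 replication genes fell and 24 mitotic genes rose, and over all the settings tried the counts ran from 17 to 26 falls and from 23 to 29 rises. Between 24 h and 48 h every subunit of the MCM2 to MCM7 helicase fell. MCM4 read 145, 162 and 160 CPM and then 78.2, 82.4 and 78.1 CPM (log2 −0.97 ± 0.06 SE, edgeR adjusted p = 9.17e-10). MCM5 read 85.8, 91.5 and 104 CPM and then 46.4, 52.9 and 50.4 CPM. MCM6 read 84.2, 84.9 and 90.8 CPM and then 58.9, 59.6 and 63.4 CPM. The time points were apart in all 3, and MCM2 (−0.48), MCM3 (−0.45) and MCM7 (−0.36) fell less than MCM4 and MCM5 by the fitted values. PCNA, the sliding clamp, fell from 136, 136 and 142 CPM to 90.9, 96.4 and 106 CPM. POLA1 (DNA polymerase alpha, −0.53), UHRF1 (maintenance methylation, −0.52) and CCNE2 also fell, the last, cyclin E2, by 1.51 from 5.72, 4.57 and 5.64 CPM to 2.17, 1.37 and 2.02 CPM. The only rise was CDT1, a licensing factor, from 67.3, 70.9 and 77.3 CPM to 80.2, 95 and 97.8 CPM (0.34, adjusted p = 0.00433).

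Of the mitotic genes, UBE2C, the ubiquitin-conjugating enzyme of the anaphase-promoting complex, rose from 68.4, 70.7 and 80.8 CPM to 102, 116 and 114 CPM (log2 0.59 ± 0.07 SE, edgeR adjusted p = 1.2e-05). KIF20A, a kinesin of cytokinesis, rose from 124, 127 and 135 CPM to 169, 185 and 164 CPM. CDC20, an activator of the anaphase-promoting complex, rose from 195, 195 and 226 CPM to 255, 281 and 274 CPM. The time points did not overlap in these genes, and no mitotic gene reached 2-fold. HJURP (0.44), which loads the centromeric histone, NEK2 (0.43), a centrosome kinase, and TOP2A (0.35) rose as well. MKI67, the Ki-67 proliferation marker, read 913, 892 and 896 CPM at 24 h and 1005, 953 and 820 CPM at 48 h, with an adjusted p of 0.682. In bulk RNA, fewer cells in a phase and less RNA of a gene per cell cannot be told apart.

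**Figure D3:**
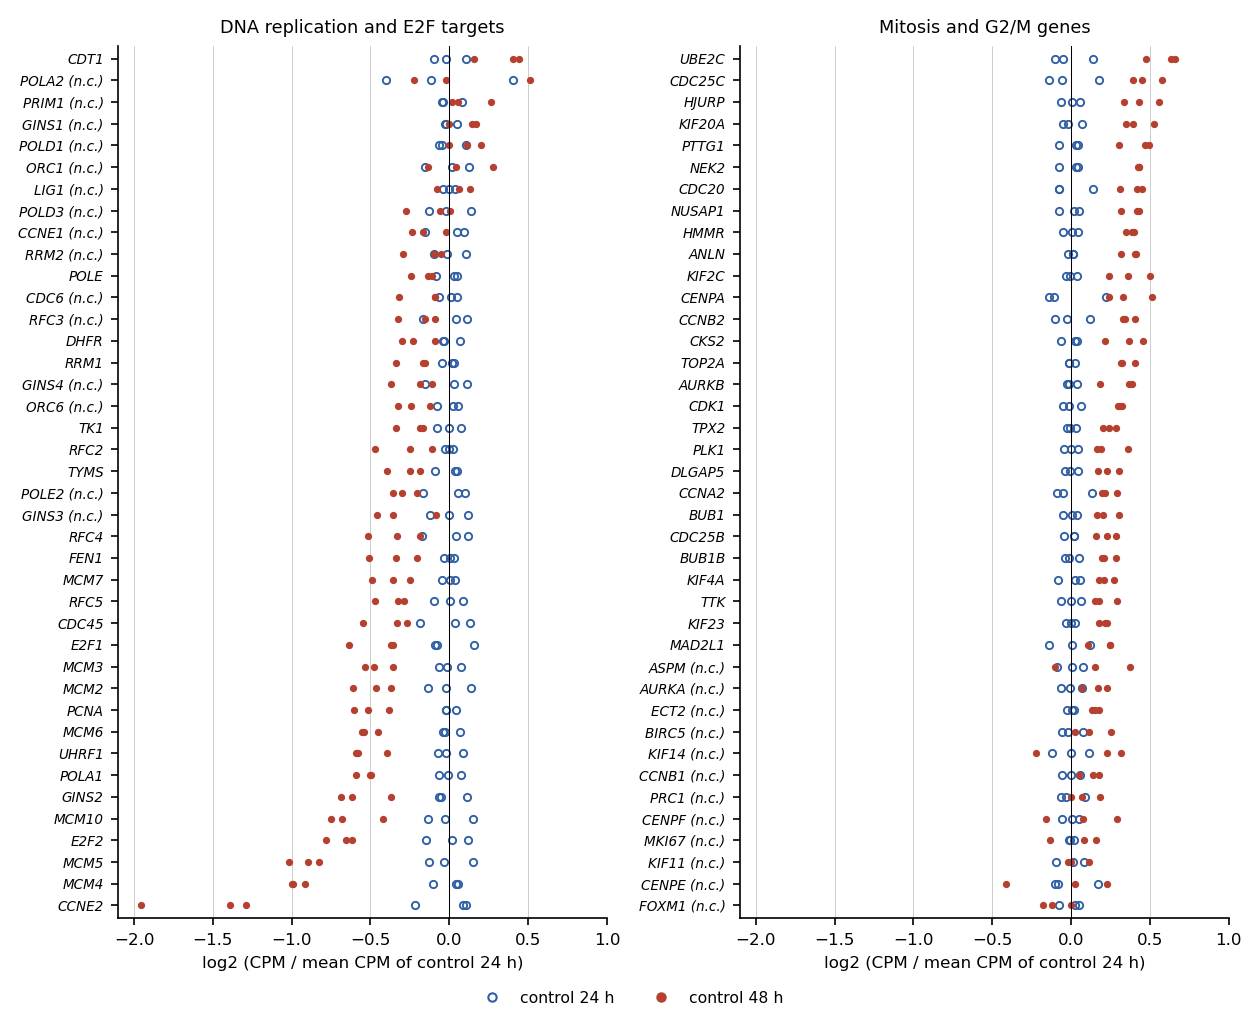
Genes of DNA replication and E2F targets (left) and of mitosis and G2/M (right) are rows ordered by fold change, and the x axis is log2 of a sample's CPM over the mean CPM of control 24 h, with open points for 24 h samples and filled points for 48 h samples. Filled points lie to the left for most rows of the left panel (median −0.28, CCNE2 lowest at −1.51) and to the right for most rows of the right panel (median 0.24, UBE2C highest at 0.59).

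The promoter of MCM6 (RefSeq, GRCh38.p14, chr2:135876394-135876693, minus strand) is shown as an example of the helicase genes. Capitals mark the E2F letters TTTCCCGC, TTTCGCGC, TTTGCCGC or TTTGGCGC on either strand. There are 4 matches, which begin 152, 148, 90 and 86 bases before the start and overlap in pairs.
MCM6: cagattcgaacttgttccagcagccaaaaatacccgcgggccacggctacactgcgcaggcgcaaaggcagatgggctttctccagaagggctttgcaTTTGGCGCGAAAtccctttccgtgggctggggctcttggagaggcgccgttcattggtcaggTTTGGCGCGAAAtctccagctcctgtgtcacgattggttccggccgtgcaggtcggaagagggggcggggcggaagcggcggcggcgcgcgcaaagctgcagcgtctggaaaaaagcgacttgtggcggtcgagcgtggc
These letters occurred in 20 of the 34 replication genes with a promoter entry (58.8%) and in 4 of the 4 MCM helicase genes with one, against 3.33% of all promoters in the table and 5.3% of those of genes tested.

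MDM2, a ubiquitin ligase, read 196, 188 and 178 CPM at 24 h and 123, 113 and 127 CPM at 48 h (log2 −0.63 ± 0.06 SE, edgeR adjusted p = 3.06e-07). CDKN1A, the p21 inhibitor of cyclin-dependent kinases, read 196, 198 and 209 CPM and then 133, 158 and 142 CPM. TIGAR read 24.8, 23 and 24.9 CPM and then 13.7, 12.8 and 14 CPM. All 3 were lower in each 48 h sample than in any 24 h sample. They are given as single genes and do not stand for a list. The list of CDK inhibitors, G1 cyclins and quiescence genes was mixed, with a median of 0.10. Among 27 tested there were 10 rises (37%, beside 12.7% of all genes) and 4 falls (14.8%, beside 10.4%). CDKN1C, the p57 inhibitor, rose from 16.7, 16.1 and 16.2 CPM to 26.5, 31.5 and 29 CPM, RBL2, a pocket protein of quiescence, by 0.43 and CDKN1B (p27) by 0.24. KLF4 is on this list too. The falls besides CDKN1A were SESN1 (−0.56), BTG2 (−0.39) and MXD4 (−0.22), and library totals alone gave 7 falls. The call of MXD4 was lost without replicate 1 at 24 h or at 48 h.

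Both subunits of the cystine importer and the glutathione-cleaving enzyme CHAC1 fell in full medium, while most genes of cysteine and glutathione metabolism did not pass the test. SLC7A11, the transport subunit (chr4:138164097-138242349), read 71.3, 61.9 and 51.3 CPM at 24 h and 37.7, 33 and 41.3 CPM at 48 h (log2 −0.72 ± 0.12 SE, edgeR adjusted p = 0.000183). SLC3A2, its heavy chain, read 175, 155 and 164 CPM and then 110, 142 and 132 CPM. CHAC1 (chr15:40952962-40956519) read 14.1, 11.2 and 12.7 CPM and then 4.26, 7.18 and 5.09 CPM. In all 3 genes every 48 h sample lay below every 24 h sample. Of 27 genes of cysteine and glutathione metabolism tested, 17 did not pass, 6 fell (22.2%, beside 10.4% of all genes) and 4 rose (14.8%, beside 12.7%), with a median of −0.00. GCLM, the modifier subunit of glutamate cysteine ligase, fell by 0.32. The 4 rises were CSAD (0.56), OPLAH (0.30), MPST (0.22) and GGT7 (0.33), and the count of rises was 1 or 2 without replicate 1, 2 or 3 at 24 h or replicate 2 or 3 at 48 h. GPX4, which reduces lipid peroxides, read 174, 176 and 189 CPM and then 167, 195 and 192 CPM (adjusted p = 0.703).

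Of 31 targets of ATF4, the factor that amino acid shortage induces, 9 fell (29%) and 6 rose (19.4%), with a median of −0.12. Over all genes 10.4% fell and 12.7% rose. The falls among the ATF4 targets included MTHFD2 of the mitochondrial folate cycle (−0.33), SESN2, a leucine sensor (−0.51), SLC7A5, an amino acid transporter (−0.37), and PSAT1 of serine synthesis (−0.35, adjusted p = 0.0795 without replicate 1 of both time points). The largest rise was DDIT4, an inhibitor of mTORC1 that HIF also induces, from 192, 234 and 264 CPM to 542, 623 and 548 CPM. TRIB3 did not pass (33.3 ± 1.28 CPM at 24 h and 30.6 ± 2.85 CPM at 48 h; SD, n = 3). Of 20 cytosolic aminoacyl-tRNA synthetases 9 fell and 1 rose, with a median of −0.11, and of 21 amino acid transporters 7 fell and 2 rose. Of 30 NRF2 targets 11 fell and 3 rose, with a median of −0.06, and without replicate 1 of both time points 7 fell. The NRF2 targets that rose were NQO1, a quinone reductase, from 311, 345 and 319 CPM to 448, 485 and 492 CPM, ABCC3 (0.70) and AKR1C3 (0.75, adjusted p = 0.0605 without replicate 3 at 24 h and 0.0811 without replicate 1 of both time points). HMOX1 did not pass (0.17, adjusted p = 0.261).

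Of 28 ferroptosis regulators tested, 6 fell (21.4%, beside 10.4% of all genes) and 2 rose (7.14%, beside 12.7%), with a median of −0.09. The fall count was 3 without replicate 3 at 48 h and 11 with library totals alone, and MBOAT2, a rise of 0.30, was not called without replicate 1 of both time points (adjusted p = 0.104). TFRC (chr3:196027183-196082189) had the smallest adjusted p of the falls, from 437 ± 8.63 to 240 ± 9.84 CPM (SD, n = 3; log2 −0.87 ± 0.05 SE, edgeR adjusted p = 3.46e-10). SAT1, which acetylates spermine and spermidine, rose from 642, 684 and 633 CPM to 1437, 1556 and 1547 CPM, 2.32-fold. Both genes separated the time points, with a spread within groups far smaller than the difference.

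Falls outnumbered rises in lists of sterol, fatty acid and nucleotide synthesis and of ribosome biogenesis. Over all genes 10.4% fell and 12.7% rose. Of 25 genes of sterol synthesis and uptake 12 fell and 1 rose, with a median of −0.20. LSS, which closes the sterol rings, read 134, 128 and 136 CPM and then 89.2, 94.1 and 86.9 CPM, HMGCS1 fell by 0.50, and the rise was MSMO1 (0.27). Of 18 genes of fatty acid synthesis and desaturation 9 fell and 2 rose, with a median of −0.20. FASN, the fatty acid synthase, read 1583, 1452 and 1789 CPM and then 1124, 1197 and 1100 CPM, and ACACA (−0.50) and SCD (−0.47) fell as well. The rises, FADS3 (0.27) and ELOVL7 (0.22), were not called without replicate 2 at 24 h, and ELOVL7 was not called without replicate 3 at 48 h. Of 24 genes of nucleotide synthesis 10 fell and none rose, with a median of −0.15, led by CTPS1 (−0.64) and including TYMS (−0.28), and without replicate 1 of both time points 6 fell. Of 35 genes of ribosome biogenesis 10 fell and 1 rose, with 20 falls under library totals alone. Related lists did not show more falls than rises. Of 17 lipid droplet and triglyceride genes tested 6 rose (35.3%) and 2 fell (11.8%), with a median of 0.18. Of 74 cytosolic ribosomal proteins 6 rose (8.11%), none fell and 68 were not called. MYC rose from 304, 293 and 308 CPM to 378, 434 and 401 CPM (log2 0.42 ± 0.06 SE, edgeR adjusted p = 0.000122), while of the 23 genes of its network and targets tested 10 fell and 6 rose, with a median of −0.12.

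Cytosolic and mitochondrial folding genes fell and ER folding genes rose where they passed, with 1 exception in the ER. Over all genes 10.4% fell and 12.7% rose. Of 13 heat shock proteins tested 6 fell and none rose, with a median of −0.21, and HSP90AA1, the inducible cytosolic HSP90, read 3116, 3278 and 3112 CPM and then 2183, 2141 and 2237 CPM. HSPE1 (−0.67) and HSPD1 (−0.43), the mitochondrial chaperonins, fell too. In other settings up to 2 heat shock proteins were called higher. Of 22 ER chaperones and unfolded protein response genes 8 rose and 1 fell (CANX, −0.15, not called without replicate 2 at 24 h or replicate 3 at 48 h), with a median of 0.11 and 5 rises without replicate 2 at 48 h, and HSPA5, the ER HSP70, read 561, 564 and 558 CPM and then 690, 774 and 731 CPM. In HSP90AA1 and HSPA5 alike the time points did not overlap. Proteasome subunits were listed after their values had been seen, so their count is a description: of 34 constitutive subunits 28 fell, with a median of −0.34, and PSMD2 read 448, 441 and 464 CPM at 24 h and 268, 295 and 289 CPM at 48 h. Of 8 subunits of the CCT chaperonin, listed in the same way, 6 fell.

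The mitochondrial genome and the nuclear genes of oxidative phosphorylation went in different directions, beside shares of 12.7% higher and 10.4% lower over all genes. Of 13 mitochondrially encoded transcripts 9 rose and none fell, with a median of 0.28, and their summed level was 59346, 53848 and 58933 CPM at 24 h and 72868, 73900 and 73331 CPM at 48 h. MT-CO1, a subunit of cytochrome oxidase, read 13603, 12989 and 14032 CPM and then 20638, 21226 and 20339 CPM (1.53-fold, edgeR adjusted p = 1.09e-07). MT-CO3 (0.45), MT-ND6 (0.48) and MT-CO2 (0.34) rose, and MT-ND1, MT-ND2, MT-ATP6 and MT-ATP8 did not pass. Of 42 nuclear-encoded genes none rose and 13 fell, with a median of −0.14, and under library totals alone 25 fell. The ATP synthase subunits ATP5F1A (−0.37), ATP5MC1 (−0.48) and ATP5F1B (−0.38) were among the falls.

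Among genes of antigen presentation, adhesion and matrix rises outnumbered falls, beside shares of 12.7% higher and 10.4% lower over all genes. Of 14 genes of MHC class I and peptide loading 8 rose and none fell, with a median of 0.35. HLA-B read 210, 214 and 230 CPM at 24 h and 307, 354 and 344 CPM at 48 h, and B2M, its light chain, 324, 364 and 335 CPM and then 431, 467 and 453 CPM. The 48 h samples were higher in each, although HLA genes are alike enough that the estimates may share reads. PSMB8 (1.52, at 1.19 CPM or less) and PSMB9 (0.51) of the same list lost their calls without most of the single libraries, PSMB8 without any of the 6 (adjusted p 0.0583 to 0.156) and PSMB9 without every one but replicate 1 at 48 h. Of 24 interferon-stimulated genes 8 rose and none fell, with a median of 0.28, led by IRF7 from 9.6, 9.81 and 9.95 CPM to 16.4, 19.4 and 20.8 CPM. Of 25 epithelial junction and keratin genes 12 rose and 1 fell (DSC2, −0.33), with CLDN7, a claudin, at 91.8, 99.5 and 98.5 CPM and then 135, 155 and 148 CPM. Of 20 mesenchymal and matrix genes 9 rose and none fell, among them PLAUR, the urokinase receptor, by 0.85. Targets of BMP and TGF-beta (6 rises of 15, ID2 0.30), of YAP and TEAD (6 of 19, CCN1 0.81) and of Notch (6 of 17, HES1 0.80, with 1 fall, HEYL) gave medians of 0.23, 0.16 and 0.20, and the call of HEYL was lost without replicate 3 at 24 h (adjusted p = 0.0566) and without replicate 1 of both time points (0.0639).

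The cells carried general epithelial markers, while several colon markers were near absent. The summed level of 12 genes of colon carcinoma epithelial identity was 3783 to 4199 CPM at 24 h and 4127 to 4564 CPM at 48 h. In a library 0 to 3 of them were at 0. KRT8 alone read 1728 to 1941 CPM. CDX2 read 13 to 17.2 CPM, HNF4A 7.84 to 11.7 CPM and VIL1 0.826 to 1.42 CPM, and CEACAM5, LGALS4 and GPA33 at most 0.513 CPM. Of 9 tested 4 rose, CLDN7, CDH1, KRT18 and KRT19. The call of KRT19 was lost without replicate 1 at 24 h (adjusted p = 0.0529). Of 11 fibroblast markers, with a summed level of 37.3 to 40.5 CPM at 24 h and 52.6 to 56.8 CPM at 48 h, 2 to 5 were at 0 in a library, and of the 4 tested COL1A1 rose (0.52). DCN and LUM had at most 2 reads in any control library. Of 11 leukocyte markers, summing to 6.36 to 7.03 CPM and then 12.5 to 12.8 CPM, 4 or 5 were at 0 and CD68, a lysosomal protein that is not restricted to leukocytes, rose from 4.02, 4.93 and 4 CPM to 10.4, 10.4 and 9.64 CPM. PTPRC and CD3E were at 0 in all 6 libraries. Endothelial markers summed to 52.4 to 58.9 and 53.9 to 64.8 CPM, with none of 4 called and 1 to 5 of 9 at 0.

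**Figure D4:**
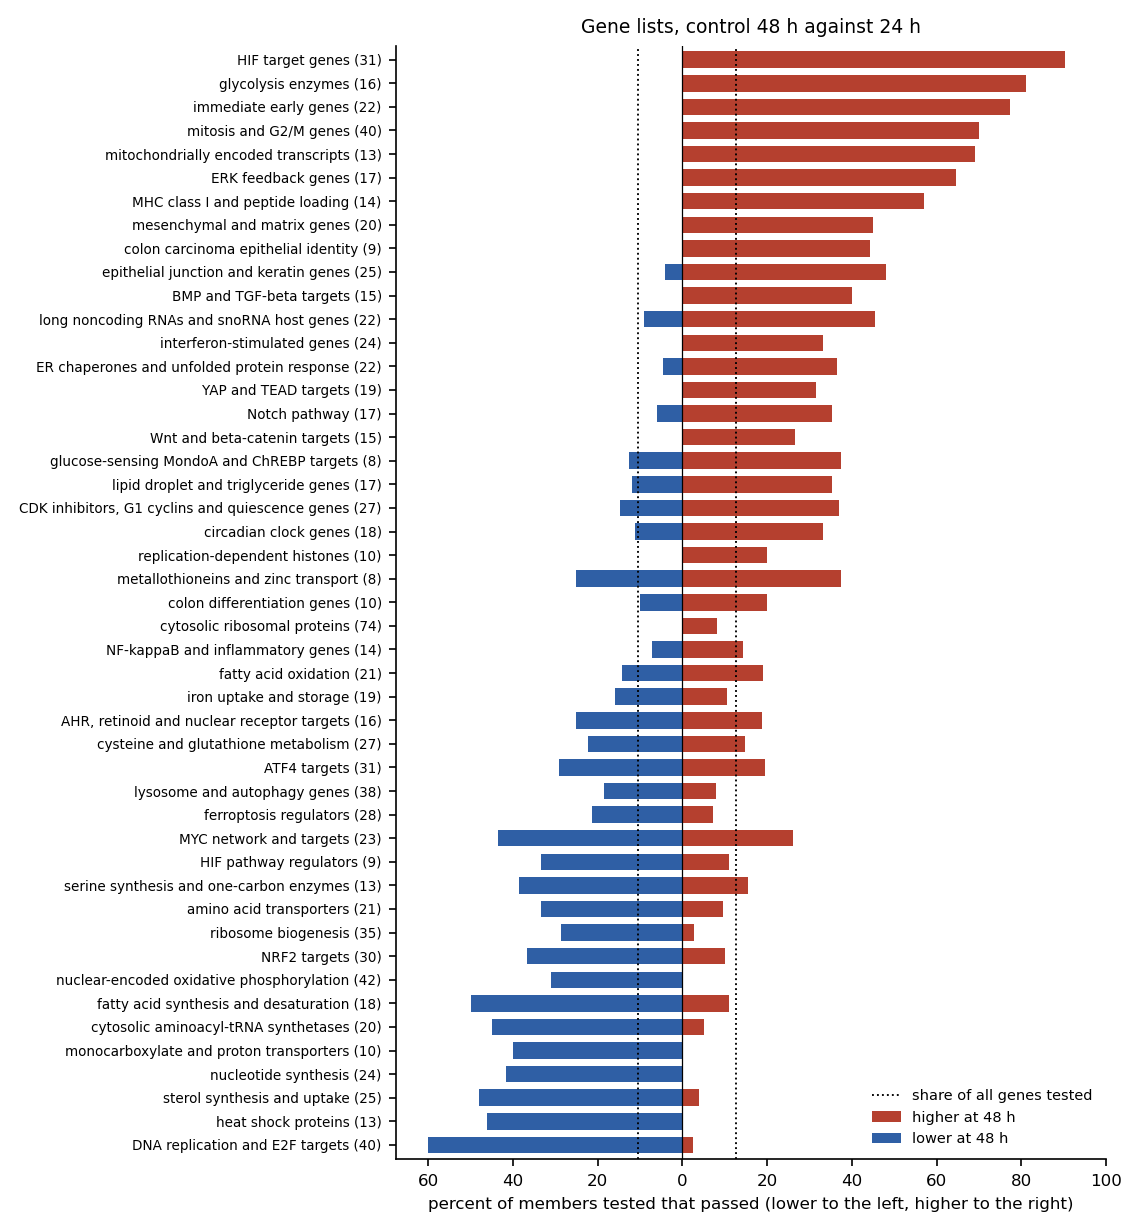
Bars give the percent of tested members of each gene list drawn that were higher (right) or lower (left) at 48 h than at 24 h in control cells. The number tested is in parentheses, and dotted lines mark the shares of all genes tested (12.7% and 10.4%). Lists with few tested members are not drawn. Lists made after their values had been seen, such as the constitutive proteasome subunits (82.4% lower), are not drawn either. Of the lists drawn, HIF target genes (90.3% higher), glycolysis enzymes and immediate early genes head the plot, and DNA replication and E2F targets (60% lower) end it.

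The same interval in cystine-deprived cells gave another pattern, tested as the difference between the changes (deprived minus control) in the fit of all 12 samples. The labels give a wash and new medium for the deprived cells only, so the loss of cystine and the new medium cannot be told apart. That difference passed for 6048 genes (35.6%), with a lower change in the deprived cells for 3261 (19.2%) and a higher one for 2787 (16.4%). In the deprived cells 3512 genes rose (20.7%) and 3708 fell (21.8%), with a median over all genes of −0.00. Of the 31 HIF targets 9 rose and 5 fell there, with a median of 0.13, and the change was lower than in control cells for 23 and higher for none. Of the 16 glycolysis enzymes 4 rose and 4 fell, with a median of −0.09, and the change was lower for 11. Immediate early genes rose in both media: 18 of 22 rose and 1 fell in the deprived cells, with a median of 0.44, and the change was lower for 12 and higher for 4. Of the 17 ERK feedback genes 8 rose and 4 fell in the deprived cells (median 0.21), and the change was lower for 7 and higher for 1. All 40 mitotic genes fell in the deprived cells, with a median of −3.40, and the change was lower for all 40. Of the 40 replication genes 34 fell and 2 rose there (median −0.72), and the change was lower for 26 and higher for 7.

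Among the 30 genes with the largest changes in control cells the difference passed for 14 of the 15 rises and 9 of the 15 falls, beside 35.6% of all genes. They were chosen for the control change that the difference subtracts, which favours a pass. ARRDC4 read 64.5, 65.3 and 55.9 CPM in deprived cells at 24 h and 51.5, 53 and 47.6 CPM at 48 h, above the control 24 h samples throughout, and fell where the control cells rose (edgeR adjusted p = 0.00599). ANKRD37 read 4, 4.71 and 5.27 CPM and then 4.58, 6.73 and 4.78 CPM, near its control level at 24 h. CHAC1 read 103, 114 and 107 CPM and then 144, 162 and 162 CPM, so that it rose in deprived cells over the interval in which it fell in controls. TFRC read 540, 527 and 540 CPM and then 514, 529 and 532 CPM, and its fall in control cells had no counterpart of that size. EGR1 rose in both, from 80.3, 84 and 93.7 CPM to 173, 174 and 168 CPM in deprived cells, and the rise was the smaller one there (difference −1.32 ± 0.11 SE, edgeR adjusted p = 3.97e-08).

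**Figure D5:**
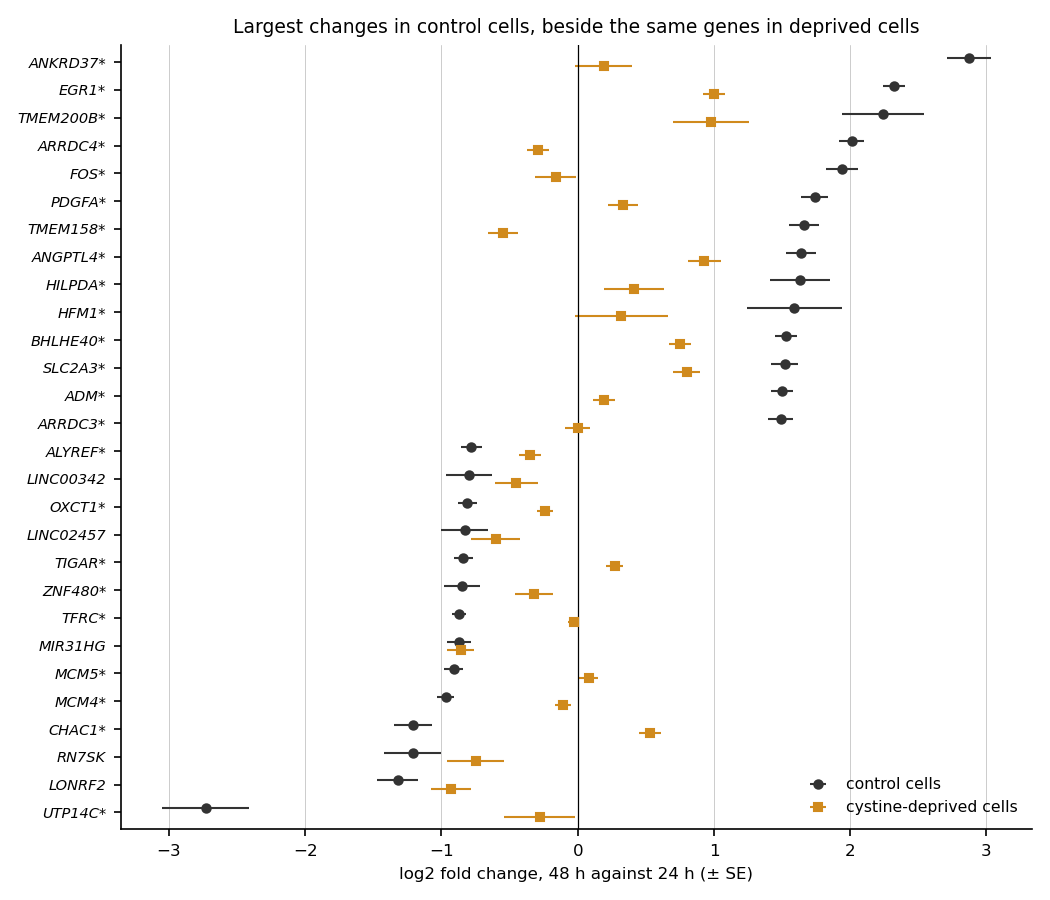
For genes with the largest changes in control cells, the x axis is the fitted log2 fold change from 24 h to 48 h with its SE as the bar, circles for control cells and squares for cystine-deprived cells, and an asterisk marks genes whose change differed between the media. The squares of ARRDC4 (−0.29), ANKRD37 (0.19) and TFRC (−0.03) lie near 0, and that of CHAC1 (0.53) lies on the other side of 0 from its circle (−1.21).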

How the data were processed

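RNA was sequenced from 12 HCT116 samples, 3 per group, and the values used are the authors' deposited estimated counts per gene, of which 14.2% are not whole numbers (tolerance 0.001); per the submitters' processing notes GRCh38 was the build, and RSEM, HISAT and fastp are named without versions. Strand setting and annotation release are not given in the sources used here. Expected counts that RSEM makes, as deposited by the authors, share reads among near-identical copies by estimate, so genes such as HLA and UTP14C are less certain. The deposited table has 60987 rows, and the 316 without a gene name held 1.06 to 1.65% of a control library's reads and were left out.

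Counts were rounded and fitted with edgeR 4.0.16 (R 4.3.3, limma 3.58.1): 1 quasi-likelihood model of the 4 group means over all 12 samples, TMM scaling, filterByExpr (minimum count 10, total 15), contrasts of 48 h against 24 h in control and deprived cells and the difference of these changes, and Benjamini-Hochberg adjustment over all genes tested with a threshold of 0.05. The fit had 8 residual degrees of freedom and a biological coefficient of variation of 6.4%. Samples of a group differed by more than counting noise (chi-square per degree of freedom 4.19 to 7.55), and each was kept as a replicate. SE is the size of the log2 fold change over the square root of F. CPM use TMM-scaled library sizes, SDs are over 3 samples, and the read depth, 19146108 to 23395234 per control library, sets the precision of low genes. Gene coordinates are GENCODE release 29 on GRCh38, matched by identifier for 16764 of 16994 genes, and promoters are RefSeq's on GRCh38.p14.

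The members and gene lists were chosen with earlier results of these data known. Named genes are the 15 largest rises and falls (adjusted p under 0.05, mean of at least 5 CPM, no overlap, plain symbol), up to 5 members of a described list by smallest adjusted p and any against its majority, and a fixed set that includes SLC7A11, CHAC1, GPX4, HIF1A, VEGFA, CA9, MYC, CDKN1A and MKI67; any other gene was named after its values were seen. Some genes and lists are not reported here. Alternatives were other scalings, DESeq2 1.42.0, other filters, a replicate block, the 6 control samples alone, leaving out each control library, and, added after seeing the data, leaving out replicate 1 of both control groups. Counts were also simulated from each gene's mean over all 12 samples with independent negative binomial noise, and 66 or 67 genes were changed at each size. On these counts of the control comparison (16620 genes) the test recovered 76.1% of 1.5-fold, 94% of 2-fold and 100% of 4-fold changes, and 4.76% of its calls were false. Far fewer genes were changed than were called in the data, and no replicate 1 or harvest day effect was simulated, so these rates need not hold there. Figures were drawn with matplotlib 3.10.9.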

Additional observations from a re-analysis of the deposited data

Results flagged for a closer look

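For 23 of the 30 genes with the largest changes in control cells, the change from 24 h to 48 h differed from that in cystine-deprived cells by edgeR's test of the difference (deprived change minus control change, log2 scale, Benjamini-Hochberg adjusted over all genes). Over all genes tested the difference passed for 35.6%. These 30 genes were chosen for their change in control cells, which the difference subtracts. The choice itself favours a pass, so the count is a description. In all 30 the fitted change in deprived cells was the smaller or the opposite one, which the choice favours too.

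Among the rises the difference was −2.68 for ANKRD37, −2.30 for ARRDC4, −2.21 for TMEM158, −2.09 for FOS, −1.49 for ARRDC3, −1.41 for PDGFA, −1.32 for EGR1 and −1.31 for ADM. It was −1.27 for HFM1, −1.26 for TMEM200B, −1.22 for HILPDA, −0.78 for BHLHE40, −0.71 for SLC2A3 and −0.71 for ANGPTL4. In the deprived cells 7 of the 15 rises were called higher and 2 lower.

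Among the falls the difference was 2.45 for UTP14C, 1.74 for CHAC1, 1.12 for TIGAR, 0.99 for MCM5, 0.86 for MCM4, 0.84 for TFRC, 0.57 for OXCT1, 0.53 for ZNF480 and 0.43 for ALYREF. In the deprived cells 8 of the 15 falls were called lower and 2 higher.

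The difference of HFM1 was at the threshold (adjusted p = 0.0494) and was lost with RLE scaling (0.0519), upper-quartile scaling (0.0517), library totals (0.065) and DESeq2 (0.164), without replicate 1 (0.127) or 2 (0.0817) at 24 h, without replicate 1 (0.0521) or 2 (0.165) at 48 h, and without replicate 1 of both (0.121). That of TMEM200B was lost with DESeq2 (0.0685), without replicate 1 at 24 h (0.0731) and without replicate 3 at 48 h (0.0679). That of ZNF480 was lost without replicate 1 (0.0682) or 2 (0.0765) at 24 h, without replicate 2 (0.0716) or 3 (0.0528) at 48 h, and without replicate 1 of both (0.0707).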

How the results depend on the processing

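Of 296 named genes 292 were called, and 0 of these reversed. Of the 283 called genes with a value in all 15 settings 245 kept their direction and call. The other 9, CA9 and PSMB8 among them, had no value in some setting, and 5 of the 9 kept their call wherever they were tested. Genes at least 2-fold lower numbered 68 in the fit as reported, 29 with DESeq2, 119 with no low-count filter and 8 with the stricter filter (mean of at least 5 CPM), and genes at least 2-fold higher 133 and, with the stricter filter, 47; that filter tests 11764 genes and the open one 32908. The sign turned for MKI67, which was not called, at −0.01 with library totals, −0.02 without replicate 1 at 48 h (range over single left-out libraries −0.02 to 0.12) and −0.01 without replicate 1 of both control groups, and for GPX4, not called, at −0.01 with library totals and −0.00 without replicate 2 at 48 h (range −0.00 to 0.11). Leaving out single control libraries gave 1559 to 2064 genes higher, 1307 to 1590 lower and 5354 to 5793 with a difference between media, and without replicate 1 of both control groups 1547 were higher and 1175 lower, with 2546 calls shared with the fit as reported.

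Whether the replicate number pairs the samples is not stated. Over all genes tested, deviations of same-numbered control samples correlated at 0.052, 0.00443 and 0.0131, and those of differently numbered ones at −0.0406 to 0.0292. Replicate 1 of both time points lay apart on the second principal component, so pairing is not excluded. With the replicate number as a block 2308 genes were higher and 1998 lower. Limits: 3 samples a group, no stated separation of cultures, a day of harvest that goes with time, and low genes (CA9, PSMB8, CCNE2) that rest on few reads. Cytosolic ribosomal proteins called higher ranged from 2 to 22 of 74. They were 6 as reported (8.11%, beside 12.7% of all genes), 22 without replicate 1 at 48 h, and 2 without replicate 1 at 24 h or replicate 2 or 3 at 48 h. Lipid droplet genes called higher were 6 of 17 tested, or 3 with library totals and without replicate 3 at 24 h or replicate 2 or 3 at 48 h.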

Other observations

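Counts for further lists are read against 12.7% of all genes higher and 10.4% lower. Of 18 circadian clock genes 6 rose and 2 fell (CLOCK by −0.36 and NR1D2 by −0.24 on the log2 scale), with NFIL3 (0.68) and PER1 (0.39) rising beside BHLHE40. Of 22 long noncoding RNAs and snoRNA host genes 10 rose and 2 fell, among them MIR210HG, the host of a hypoxia-induced microRNA (1.24), H19 (0.99) and MALAT1, which read 174, 186 and 154 CPM at 24 h and 323, 232 and 269 CPM at 48 h. The count of rises was 6 without replicate 3 at 48 h, and of the falls SNHG12 was lost without any single library but replicate 3 at 24 h, and SNHG1 without replicate 1 or 2 at 24 h or replicate 1 at 48 h. Of 15 Wnt and beta-catenin targets, with a median of −0.03, 4 rose and none fell, DKK1 (0.86) and NOTUM (0.85), which inhibit Wnt, SOX9 (0.41) and MYC, and library totals gave 2 falls. Of 23 collagen genes, listed after their values were seen, 10 rose and COL12A1 fell (−0.48).

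FAM220A and FP671120.6 passed edgeR's test with large differences but lie outside the naming rule. FAM220A read 2.93, 20.2 and 11.5 CPM at 24 h and 0.383, 0.503 and 2.98 CPM at 48 h (log2 −3.17, adjusted p = 0.00198), with overlapping samples. FP671120.6, a clone-named locus, read 252, 359 and 295 CPM and then 90.8, 75.6 and 178 CPM (−1.39, adjusted p = 0.00021), without overlap.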
